A study of Mus musculus with 12 samples.

Results

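The genes described here are 10 components of transforming growth factor beta (TGF-beta) signalling, measured in mouse brain microglia after bone marrow transplantation. They are the rows of the deposited raw count table with the symbols Tgfb1, Nrros, Itgav, Tgfbr1, Tgfbr2, Smad2, Smad3, Smad7, Ski and Skil, 10 of its 24328 gene symbols. The rule used no measured value, but the genes were chosen with earlier results of these data known. All 10 passed the low-count filter and were among the 12695 genes tested.

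TGF-beta is a secreted cytokine that is made in a latent form, held inactive by its own propeptide. Microglia, the resident macrophages of the brain, display the latent form on the anchor protein NRROS, and integrins containing the alpha-V subunit free the active cytokine. The active ligand joins a type II and a type I receptor kinase, which phosphorylate the transcription factors SMAD2 and SMAD3, while SMAD7, SKI and SKIL restrain the pathway. In microglia this signal is known to maintain the expression of genes that set these cells apart from other macrophages.

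All 12 libraries came from wild-type mice of the Balb/c strain, 4 mice in each of 3 groups. Allogeneic mice were lethally irradiated and received allogeneic bone marrow (5000000 cells) and T cells (300000 cells). Syngeneic mice were lethally irradiated and received syngeneic marrow and T cells at the same doses, and control mice were not transplanted. Transplanted mice were examined on day 14, which the labels call the peak of graft-versus-host disease, an attack of donor T cells on the host. Microglia were isolated by fluorescence-activated sorting, and total RNA was sequenced. The sources used here do not state the donor strain, the age of the mice or the markers used for sorting. Microglia-like cells of donor origin are not separated from host cells by the labels.

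The 12 libraries held 35559202 to 42641198 counts in allogeneic, 36422729 to 46126118 in syngeneic and 32652208 to 45439607 in control libraries. The summed level of 7 microglia markers (P2ry12, Tmem119, Cx3cr1, Sall1, Csf1r, Aif1 and Itgam) was 19850 to 20680 CPM (counts scaled to a common library size) in allogeneic, 28470 to 30410 CPM in syngeneic and 34940 to 39470 CPM in control libraries, with all 7 detected in every group. All levels are CPM scaled by TMM factors, which were 0.844 to 0.893 in allogeneic, 1.002 to 1.021 in syngeneic and 1.096 to 1.159 in control libraries. Fold changes come from 1 edgeR quasi-likelihood fit of all 12 libraries, given as log2 fold change ± SE, and a gene was called at a Benjamini-Hochberg adjusted p under 0.05. Of the 7 microglia markers, 5 were called lower and 2 higher in allogeneic against control mice, where 57.3% of all genes were called. In syngeneic against control mice 4 were called lower and 3 higher, where 52.1% of all genes were called. Aif1 averaged 1872 CPM in allogeneic, 1092 CPM in syngeneic and 540.5 CPM in control libraries, against the direction of the sum. P2ry12, at 17290 CPM in syngeneic and 12080 CPM in control libraries, and Itgam, at 1416 and 1133 CPM, were also higher in syngeneic mice. Csf1r fell from 11490 CPM in control to 3525 CPM in syngeneic libraries. In bulk samples, fewer cells of a type and less RNA per cell cannot be told apart.

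Against control mice, both transplanted groups had less Nrros and more Itgav, Tgfbr2 and Skil. Nrros stood at 0.559 of the control level in allogeneic and 0.466 in syngeneic mice, Itgav was 1.70-fold higher in allogeneic and 1.95-fold in syngeneic mice, and Skil 1.64-fold higher in allogeneic and 1.69-fold in syngeneic mice. Between the transplanted groups, Tgfbr1, Smad3 and Ski were lower in allogeneic than in syngeneic mice, at 0.804, 0.603 and 0.732 of the syngeneic level, and Tgfbr2 was 1.24-fold higher. Tgfb1 was called in none of the 3 comparisons.

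Within a group, levels can be compared between genes only per transcript length. On the scale of CPM per kb of the longest annotated transcript, Tgfbr1 was highest of the 10 in every group, at 199 ± 8.55 in allogeneic, 248 ± 8.99 in syngeneic and 208 ± 13.4 in control libraries (SD, n = 4 each). Tgfb1 was lowest in every group, at 2.68 ± 0.677 in allogeneic, 2.52 ± 0.483 in syngeneic and 3.53 ± 0.520 CPM per kb in control libraries. Between these ends, the order differed between the groups. In allogeneic libraries Skil stood at 105, Nrros at 56.1, Tgfbr2 at 46.4, Ski at 34.3 and Itgav at 21.0 CPM per kb, and Nrros and Tgfbr2 overlapped. In syngeneic libraries Skil stood at 108, Ski at 46.9, Nrros at 46.7, Tgfbr2 at 37.5 and Itgav at 23.9 CPM per kb, and Nrros overlapped both Ski and Tgfbr2. In control libraries Nrros came after Tgfbr1 at 100, before Skil at 64.3, Ski at 39.5, Tgfbr2 at 29.5 and Itgav at 12.3 CPM per kb. Smad3, Smad7 and Smad2 followed in that order of mean in every group, and neighbours overlapped among all of them in allogeneic libraries and between Smad3 and Smad7 in control libraries. Itgav also overlapped Smad3 in control libraries.

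**Figure D1:**
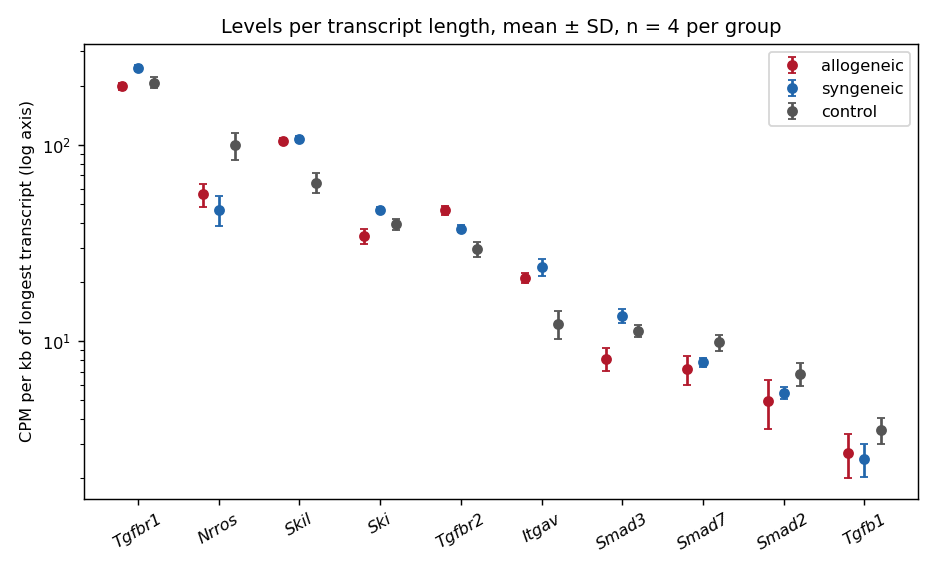
Mean level of each gene per transcript length (CPM per kb, log axis) in allogeneic, syngeneic and control libraries, with bars for SD over 4 mice. Tgfbr1 is highest and Tgfb1 lowest in all 3 groups, and Nrros and Skil change places between control and transplanted mice.

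The ligand was measured at a low level. Tgfb1, which encodes the TGF-beta 1 precursor, had 7.75, 4.41, 7.06 and 8.36 CPM in allogeneic libraries, against 5.08, 6.27, 8.10 and 6.47 CPM in syngeneic and 7.31, 10.5, 8.92 and 9.57 CPM in control libraries. The ranges of all 3 groups overlapped. The log2 fold change was 0.089 ± 0.27 for allogeneic against syngeneic (adjusted p = 0.884), -0.49 ± 0.27 for syngeneic against control (adjusted p = 0.15) and -0.40 ± 0.27 for allogeneic against control (adjusted p = 0.231), and none was called. With scaling by library totals alone, the comparison of allogeneic with control passed the threshold (-0.77, adjusted p = 0.023, or -0.33 relative to the median of all genes, which that scaling lowers).

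Nrros, which encodes the protein that anchors latent TGF-beta 1 on microglia, had 201, 175, 238 and 189 CPM in allogeneic libraries. It had 174, 154, 136 and 204 CPM in syngeneic libraries, and 399.7, 301, 413 and 321 CPM in control libraries. Every control library was above every library of a transplanted mouse, and the allogeneic and syngeneic ranges overlapped. Nrros fell in syngeneic against control mice by 1.10 ± 0.13 on the log2 scale (adjusted p = 9.61e-07), to 0.466 of the control level. It fell by 0.84 ± 0.13 in allogeneic against control mice (adjusted p = 1.78e-05). The difference between allogeneic and syngeneic mice was 0.26 ± 0.13 and was not called (adjusted p = 0.185). Both falls stayed called in all 22 alternative analyses, but they were smaller when GC content and transcript length were offset, at -0.64 for syngeneic (adjusted p = 0.000311) and -0.31 for allogeneic against control (adjusted p = 0.0404).

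Itgav, which encodes the integrin alpha-V subunit, had 136, 152, 151 and 153 CPM in allogeneic libraries. It had 167, 184, 179.8 and 146 CPM in syngeneic and 77.3, 94.3, 72.4 and 103 CPM in control libraries. It lay higher in all 8 transplanted mice than in any control mouse, and the allogeneic and syngeneic ranges overlapped. Itgav rose 1.95-fold in syngeneic against control mice (log2 fold change 0.96 ± 0.11, adjusted p = 7.8e-07) and 1.70-fold in allogeneic against control mice (0.77 ± 0.11, adjusted p = 8.47e-06). The difference between allogeneic and syngeneic mice was -0.19 ± 0.11 (adjusted p = 0.271), but with library totals alone it passed the threshold (-0.39, adjusted p = 0.0178, or -0.18 relative to the median of all genes). Of the 10744 exonic bases of Itgav in the annotation, 634 are shared with a gene on the opposite strand, Gm13684. The sources used here do not state whether counting used the strand.

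The receptor genes moved in opposite directions between allogeneic and syngeneic mice. Tgfbr1, which encodes the type I receptor kinase that phosphorylates SMAD2 and SMAD3, had 1117, 1093, 1185.5 and 1191 CPM in allogeneic libraries. It had 1404.7, 1404.5, 1394 and 1504 CPM in syngeneic and 1085, 1213, 1262 and 1226 CPM in control libraries. All 4 syngeneic libraries were above the other 8, and the allogeneic and control ranges overlapped. Tgfbr1 fell in allogeneic against syngeneic mice by 0.32 ± 0.059 on the log2 scale (adjusted p = 0.00081) and rose in syngeneic against control mice by 0.25 ± 0.059 (adjusted p = 0.00149). The rise was not called with the GC content and length offset (0.016, adjusted p = 0.839) or with library totals alone (0.084, adjusted p = 0.273, or 0.28 relative to the median of all genes). For allogeneic against control mice the value was -0.061 ± 0.059 (adjusted p = 0.397). That comparison was called lower with the offset (-0.21, adjusted p = 0.00358). It was also called lower with library totals (-0.43, adjusted p = 1.02e-05), where the median of all genes was -0.438 and Tgfbr1 stood at 0.0 relative to it.

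Tgfbr2 encodes the type II receptor kinase, which binds the ligand and activates the type I receptor. Its level was 362, 407, 361 and 372 CPM in allogeneic libraries, 302, 293, 298 and 321 CPM in syngeneic libraries, and 208, 242, 256 and 248 CPM in control libraries. No range overlapped another, with allogeneic highest and control lowest. Tgfbr2 rose in allogeneic against syngeneic mice by 0.31 ± 0.074 (adjusted p = 0.00637), in syngeneic against control mice by 0.35 ± 0.074 (adjusted p = 0.000634) and in allogeneic against control mice by 0.66 ± 0.074 (adjusted p = 4.76e-07), on the log2 scale. With library totals alone, the first became 0.10 (adjusted p = 0.377), or 0.32 relative to the median of all genes, and the second 0.18 (adjusted p = 0.0682), or 0.37 relative to that median.

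The transcripts of both receptors were also set against each other within each library, which removes the scaling between libraries but not trends with GC content or length. The ratio of Tgfbr2 to Tgfbr1 in CPM per kb was 0.217 to 0.265 in allogeneic, 0.149 to 0.153 in syngeneic and 0.136 to 0.144 in control libraries. The 3 groups did not overlap in this ratio, which is given as a description with no test.

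The windows around the start sites of Nrros, Tgfbr1 and Tgfbr2 are shown because Nrros was the member with the largest fall and the 2 receptor genes moved in opposite directions. Each window runs from 250 bases before to 50 after a start site in RefSeq (build GRCm38.p6), 5′ to 3′ on the strand of the gene. Capitals mark CAGAC (the SMAD box), GAGGAA (the core bound by the macrophage factor PU.1) and GGGCGG (the GC box), in either orientation. The windows are Nrros at chr16:32165545-32165844 (minus strand), Tgfbr1 at chr4:47352972-47353271 and at a further start site, chr4:47385966-47386265 (both plus strand), and Tgfbr2 at chr9:116175314-116175613 (minus strand).
Nrros: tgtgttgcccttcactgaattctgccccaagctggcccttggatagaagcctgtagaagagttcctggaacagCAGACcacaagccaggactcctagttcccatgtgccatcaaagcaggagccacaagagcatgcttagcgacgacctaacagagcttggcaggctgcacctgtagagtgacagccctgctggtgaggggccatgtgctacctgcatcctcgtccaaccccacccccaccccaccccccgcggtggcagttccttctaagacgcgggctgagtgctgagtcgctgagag
Tgfbr1, first start site: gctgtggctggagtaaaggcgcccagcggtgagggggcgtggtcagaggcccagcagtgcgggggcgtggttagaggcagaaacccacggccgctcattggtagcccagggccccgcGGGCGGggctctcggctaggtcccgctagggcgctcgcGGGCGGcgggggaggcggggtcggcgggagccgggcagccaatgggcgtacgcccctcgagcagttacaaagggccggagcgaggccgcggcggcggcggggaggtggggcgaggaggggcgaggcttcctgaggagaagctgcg
Tgfbr1, further start site: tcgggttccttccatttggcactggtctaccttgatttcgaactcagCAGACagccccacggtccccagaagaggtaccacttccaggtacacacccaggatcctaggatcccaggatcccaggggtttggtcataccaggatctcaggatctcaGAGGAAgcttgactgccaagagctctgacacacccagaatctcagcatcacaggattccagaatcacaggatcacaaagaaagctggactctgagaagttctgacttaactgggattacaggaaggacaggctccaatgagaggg
Tgfbr2: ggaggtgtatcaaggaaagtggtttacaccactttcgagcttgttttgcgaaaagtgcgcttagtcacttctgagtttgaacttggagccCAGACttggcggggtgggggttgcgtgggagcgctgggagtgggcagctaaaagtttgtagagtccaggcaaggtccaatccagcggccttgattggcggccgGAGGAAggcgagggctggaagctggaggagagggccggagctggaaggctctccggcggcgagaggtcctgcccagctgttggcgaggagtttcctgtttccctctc
The first Tgfbr1 window held 2 GC boxes, at -133 and -95, and neither CAGAC nor GAGGAA. The Tgfbr2 window held CAGAC at -160 and GAGGAA at -57, and the further Tgfbr1 window held CAGAC at -203 and GAGGAA at -95. The Nrros window held CAGAC at -177 and 2 matches to the STAT site TTCNNNGAA, at -240 and -189, which capitals do not mark. None of these matches overlapped another in its window. Of 32851 windows of this length, 49.6% held CAGAC, 28.3% held GAGGAA and 35.7% held GGGCGG, so such a match is common, and 8.3% held TTCNNNGAA. The palindrome GTCTAGAC was in 0.213% of all windows and in none of the 4 shown. A match is a run of letters and does not show binding.

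Of the signal transducers, Smad3 fell in allogeneic against syngeneic mice and Smad2 was not called. Smad3 encodes a receptor-activated SMAD that binds DNA directly, and had 39.0, 36.2, 48.8 and 41.7 CPM in allogeneic libraries. It had 71.6, 73.1, 69.1 and 61.0 CPM in syngeneic and 55.1, 56.8, 53.7 and 63.5 CPM in control libraries. The allogeneic libraries were below all other 8, while the syngeneic and control ranges overlapped. Smad3 fell to 0.603 of the syngeneic level in allogeneic mice (log2 fold change -0.73 ± 0.12, adjusted p = 0.00014), and this call held in all 22 alternatives, with values of -0.94 to -0.60. It fell in allogeneic against control mice by 0.47 ± 0.12 (adjusted p = 0.00201), but with the GC content and length offset the value was 0.14 and not called (adjusted p = 0.358). In syngeneic against control mice the value was 0.26 ± 0.12 (adjusted p = 0.064). It was called higher in 8 of 22 alternatives, among them DESeq2 (adjusted p = 0.0408), the offset (0.74, adjusted p = 6.03e-05) and the fits without control replicate 4 (0.0445), syngeneic replicate 4 (0.038) or allogeneic replicate 3 (0.0472).

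Smad2, which encodes the other receptor-activated SMAD of this pathway, varied more between allogeneic mice. It had 48.1, 51.4, 27.6 and 33.9 CPM in allogeneic libraries, 43.4, 47.2, 45.6 and 40.1 CPM in syngeneic libraries, and 55.0, 65.8, 50.2 and 50.3 CPM in control libraries. The allogeneic range spanned the whole syngeneic range and reached into the control range. Smad2 was called lower in allogeneic against control mice (-0.46 ± 0.17, adjusted p = 0.0259). That call was lost without control replicate 2 (adjusted p = 0.0818), without allogeneic replicate 3 (adjusted p = 0.0912), without allogeneic replicate 4 (adjusted p = 0.0794) and in a fit of those 2 groups only (adjusted p = 0.0502). For allogeneic against syngeneic mice the value was -0.13 ± 0.17 (adjusted p = 0.679). The syngeneic and control ranges did not overlap, but the difference was not called (-0.33 ± 0.17, adjusted p = 0.112). It was called with the offset (-0.52, adjusted p = 0.0166), with library totals (adjusted p = 0.023, or -0.30 relative to the median of all genes) and in the fit of those 2 groups only (adjusted p = 0.0322).

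**Figure D2:**
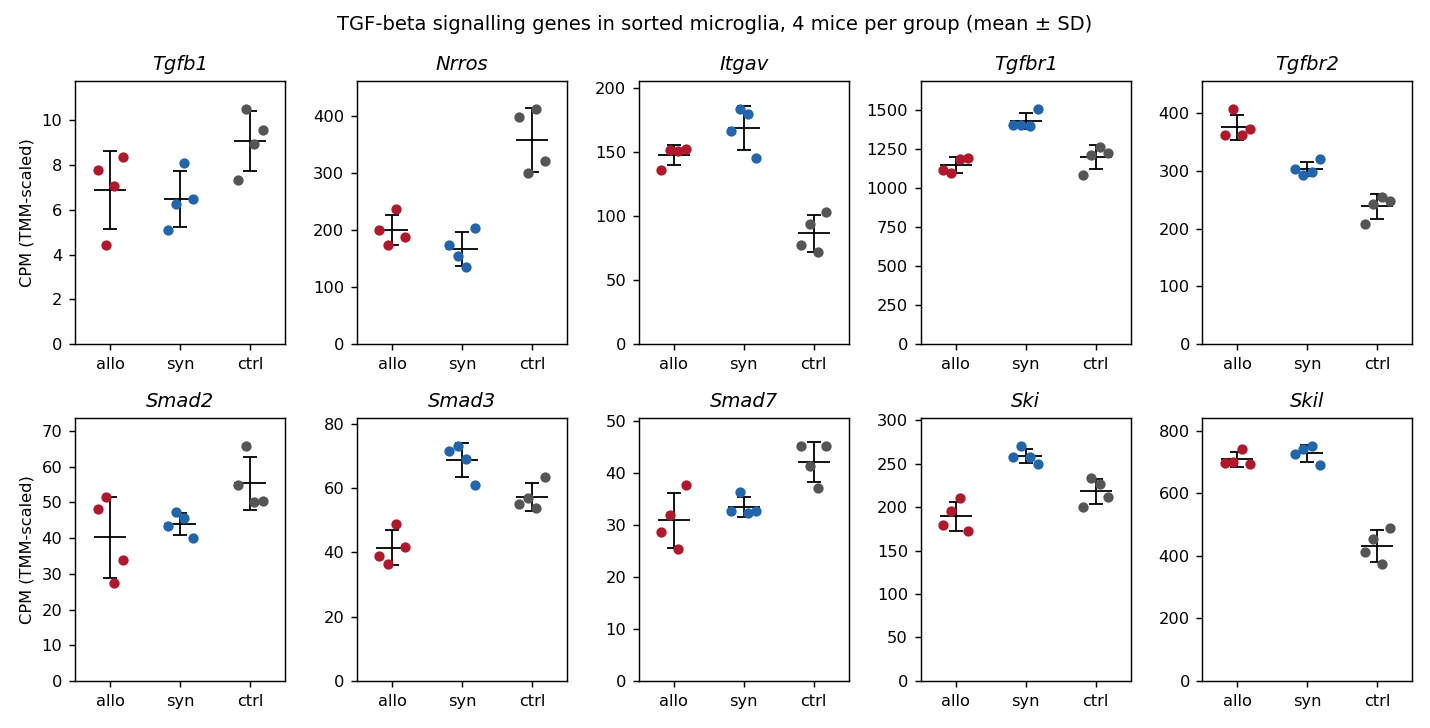
CPM (TMM-scaled) of each of the 10 genes in every library, with allogeneic (allo) left, syngeneic (syn) in the middle and control (ctrl) right, and lines and bars for mean ± SD over 4 mice. Nrros, Itgav and Skil separate all control mice from all transplanted mice, and Smad3 in allogeneic mice lies below every other library.

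Among the inhibitors, Ski fell in allogeneic against syngeneic mice while Smad7 and Skil were not called, and Skil rose against controls in both transplanted groups. Smad7 encodes the inhibitory SMAD that competes for the type I receptor. It had 28.6, 31.9, 25.4 and 37.7 CPM in allogeneic libraries, 32.7, 36.2, 32.3 and 32.6 CPM in syngeneic libraries, and 45.2, 41.3, 37.0 and 45.1 CPM in control libraries. The syngeneic libraries lay below all controls, and 1 allogeneic library reached into the control range. Smad7 was called lower in allogeneic against control mice (-0.45 ± 0.14, adjusted p = 0.00963). In syngeneic against control mice it was -0.33 ± 0.14 and just missed the threshold (adjusted p = 0.0506), and in allogeneic against syngeneic mice it was -0.12 ± 0.14 (adjusted p = 0.656). With the GC content and length offset both comparisons with controls turned round and were called higher, at 0.38 for allogeneic (adjusted p = 0.0275) and 0.42 for syngeneic against control mice (adjusted p = 0.0195). Without the offset, the syngeneic value was called lower without control replicate 3 (adjusted p = 0.0372), allogeneic replicate 3 (0.0398) or allogeneic replicate 4 (0.0376), and then 2 members in place of 1 were called lower in that comparison. The syngeneic value was also called lower with library totals alone (-0.50, adjusted p = 0.0064, or -0.31 relative to the median of all genes). The stricter filter, limma-voom and the fit of those 2 groups only gave the same call. The direction of Smad7 against controls differed between the scalings.

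Ski and Skil encode related co-repressors that bind SMAD proteins on DNA. Ski had 179, 195, 210.1 and 173 CPM in allogeneic libraries, 258, 271, 257 and 250.3 CPM in syngeneic libraries, and 201, 234, 226 and 212 CPM in control libraries. The syngeneic libraries were above all others, and the allogeneic and control ranges overlapped. Ski fell in allogeneic against syngeneic mice by 0.45 ± 0.077 (adjusted p = 0.000304), a call that held in all 22 alternatives, and rose in syngeneic against control mice by 0.25 ± 0.077 (adjusted p = 0.0114). The rise was 0.89 with the offset (adjusted p = 5e-08) and 0.077 with library totals, where it was not called (adjusted p = 0.405) and stood at 0.27 relative to the median of all genes. In allogeneic against control mice Ski was called lower at -0.20 ± 0.077 (adjusted p = 0.0303). With the offset it was called higher instead, at 0.58 (adjusted p = 6.56e-06). The call of lower held in 13 of 22 alternatives. Apart from the fits with the offset, the call was lost in 7, DESeq2 among them (adjusted p = 0.0663). It was lost without control replicate 2 (adjusted p = 0.0695), control replicate 3 (0.0624), allogeneic replicate 1 (0.0842) and allogeneic replicate 4 (0.101).

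Skil had 698, 699, 742 and 693 CPM in allogeneic libraries, 726, 742, 751 and 692 CPM in syngeneic libraries, and 411, 455, 372 and 489 CPM in control libraries. All 8 transplanted mice lay above all controls, and the allogeneic and syngeneic ranges overlapped. Skil rose 1.69-fold in syngeneic against control mice (log2 fold change 0.75 ± 0.074, adjusted p = 1.17e-07) and 1.64-fold in allogeneic against control mice (0.71 ± 0.074, adjusted p = 1.56e-07). The difference between allogeneic and syngeneic mice was -0.039 ± 0.074 (adjusted p = 0.798), and with library totals alone it was called lower (-0.24, adjusted p = 0.0302), at -0.02 relative to the median of all genes.

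The co-repressor transcripts were also set against each other and against Smad3 within each library. The ratio of Skil to Ski in CPM per kb was 2.90 to 3.29 in allogeneic, 2.25 to 2.40 in syngeneic and 1.35 to 1.89 in control libraries. The ratio of Skil to Smad3 in CPM per kb was 11.5 to 14.6 in allogeneic, 7.69 to 8.59 in syngeneic and 5.25 to 6.07 in control libraries. Neither ratio overlapped between any pair of groups. These ratios carry no offset, and the order against controls depends on it. With the GC content and length offset, the log2 fold change of syngeneic against control mice was 0.45 for Skil, below 0.89 for Ski and 0.74 for Smad3. For allogeneic against control mice the log2 fold change was 0.52 for Skil, 0.58 for Ski and 0.14 for Smad3. The ratio of Smad3 to Smad2 in CPM per kb was 1.12 to 2.81 in allogeneic, 2.41 to 2.62 in syngeneic and 1.37 to 2.01 in control libraries. The allogeneic range spanned both others, and those did not overlap each other.

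**Figure D3:**
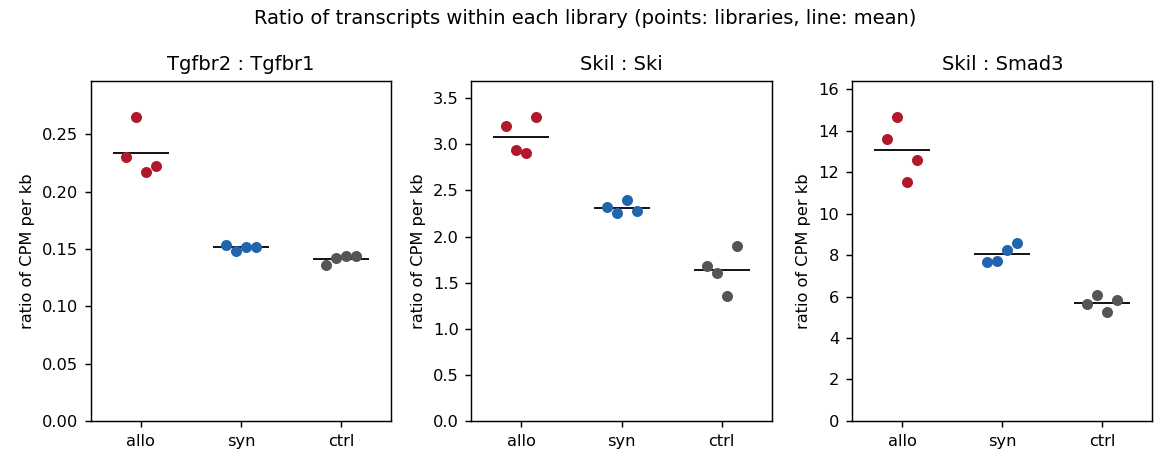
Ratios of CPM per kb within each library for Tgfbr2 to Tgfbr1, Skil to Ski and Skil to Smad3, with points for libraries and lines for means, allogeneic (allo) left and control (ctrl) right. Each ratio is highest in allogeneic libraries and lowest in control libraries, with no overlap between groups and no correction for GC content. With the GC content and length offset, the log2 fold change in syngeneic against control mice was 0.45 for Skil, 0.89 for Ski and 0.74 for Smad3, so the low place of control for those ratios depends on it.

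Counted over the 10 genes, 1 was called higher and 3 lower in allogeneic against syngeneic mice, or 40%, while 16.5% of all tested genes were called, 10.1% higher and 6.38% lower. The ranges of 4 of the 10 did not overlap, 1 higher and 3 lower, against 20.7% of all genes (12.6% higher and 8.1% lower). The median log2 fold change was -0.12 over the 10 genes and -0.015 over all genes tested. In syngeneic against control mice, 5 were called higher and 1 lower, or 60%. That is near the background, since 52.1% of all genes were called, 26.4% higher and 25.6% lower. The ranges of 8 members did not overlap, 5 higher and 3 lower, against 50% of all genes (24.6% higher and 25.5% lower). The medians were 0.25 over the 10 genes and -0.028 over all genes. In allogeneic against control mice, 3 were called higher and 5 lower, or 80%, while 57.3% of all genes were called, 28.2% higher and 29.1% lower. The ranges of 5 members did not overlap, 3 higher and 2 lower, against 53.8% of all genes (26.2% higher and 27.7% lower). Without control replicate 2 or without allogeneic replicate 4, 3 members were called lower in place of 5. The medians were -0.30 over the 10 genes and -0.069 over all genes. With the GC content and length offset, Smad3, Smad7 and Ski moved above 0 in this comparison, at 0.14, 0.38 and 0.58. Then 5 members were called higher and 3 lower, so the negative median over the 10 genes depends on the scaling. The shares of all genes were not matched to the members for level. The 3 comparisons share their groups with each other, so their values stand side by side and are not independent.

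**Figure D4:**
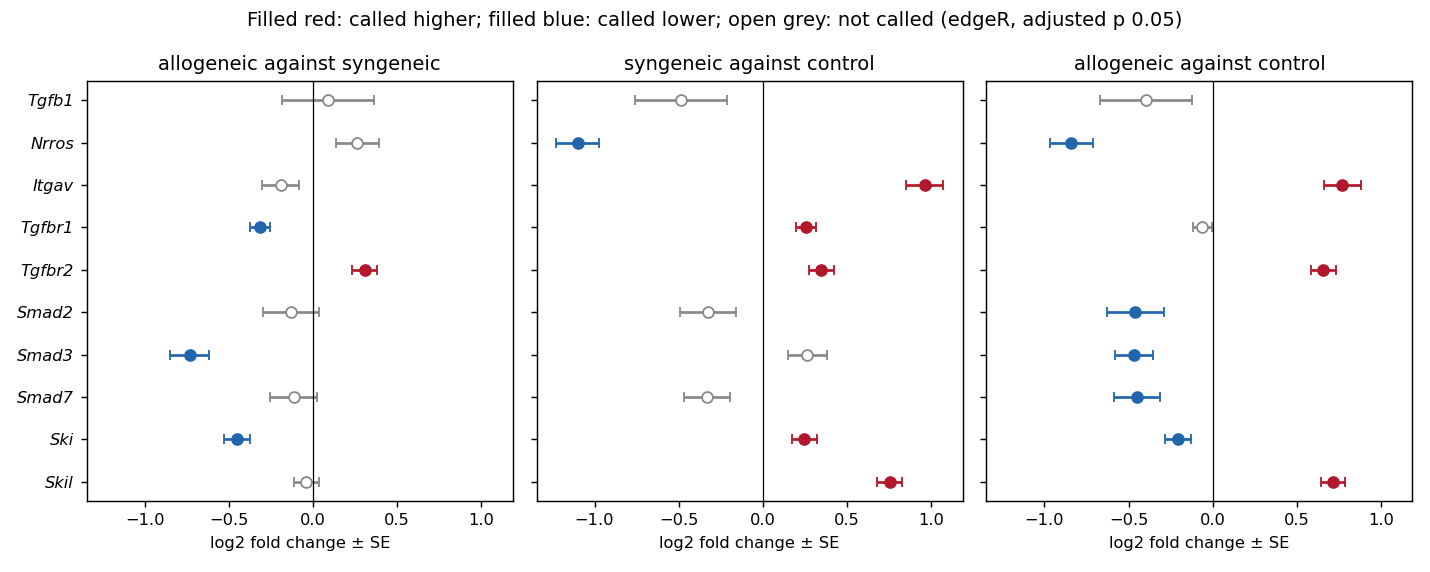
Log2 fold change ± SE of the 10 genes in the 3 comparisons (edgeR, 4 mice per group), with filled red for genes called higher, filled blue for genes called lower and open grey for genes not called. Tgfbr1, Smad3 and Ski are lower and Tgfbr2 is higher in allogeneic against syngeneic mice, and Nrros is lower and Itgav, Tgfbr2 and Skil are higher in both comparisons with controls.

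The scaling bears on these counts. With library totals alone, the median of all genes shifted to -0.218 in the comparison of allogeneic with syngeneic mice, to -0.195 in that of syngeneic with control mice and to -0.438 in that of allogeneic with control mice. The share of called genes that were higher was then 28.6%, 40.7% and 31.8% in that order of comparisons, against 61.4%, 50.8% and 49.2% with TMM. Over all genes, the log2 fold change in allogeneic against control mice ran with GC content at a Spearman rho of -0.28, and in syngeneic against control mice at -0.29, against -0.05 in allogeneic against syngeneic mice. In that last comparison it ran with transcript length, at a rho of -0.19, and the 4207 genes of at least 4201 bases, 8 of the members among them, had a median of -0.11. The members differ in GC content, which was 56.9% in Smad7, 55.6% in Ski, 53.5% in Nrros and 53.1% in Smad3, against 41% in Tgfbr1 and Skil. Calls that held in all 22 alternatives were those of Tgfbr1, Smad3 and Ski as lower in allogeneic against syngeneic mice, of Nrros as lower and Itgav and Skil as higher in both comparisons with controls, and of Tgfbr2 as higher in allogeneic against control mice.

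**Figure D5:**
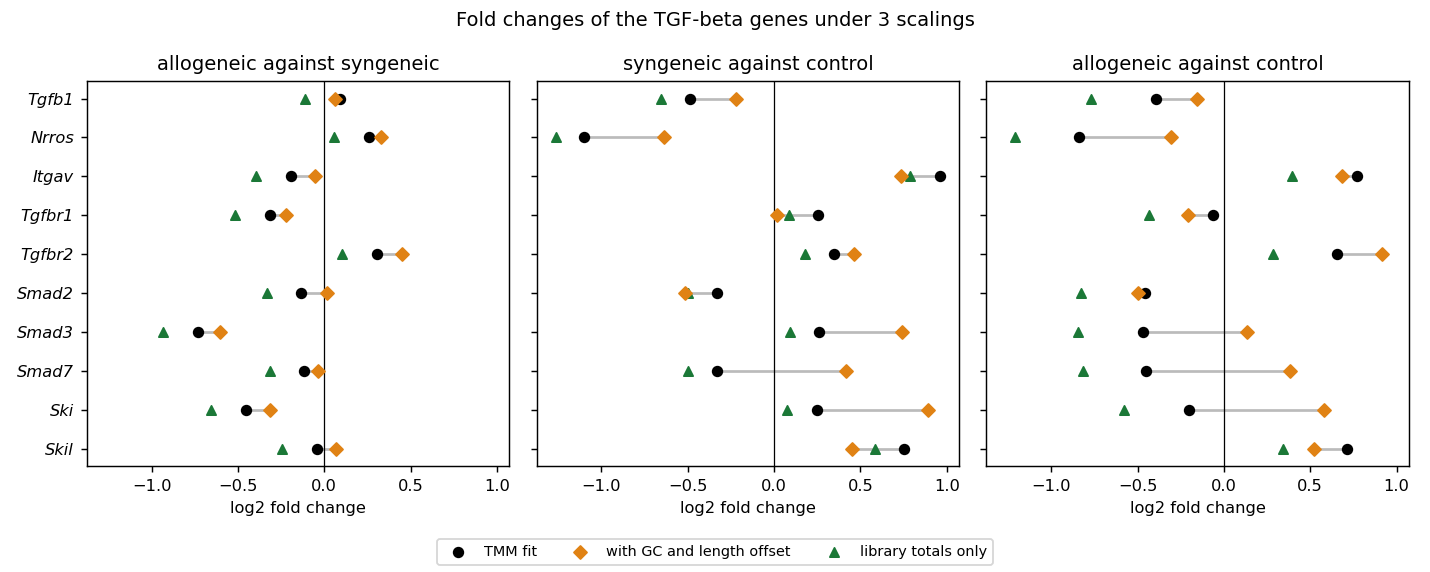
Log2 fold changes of the 10 genes with TMM scaling (black circles), with the GC content and length offset (orange diamonds) and with library totals alone (green triangles). In both comparisons with controls the offset moves Smad7 from below to above 0, and in allogeneic against control mice it does the same for Smad3 and Ski.

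Other cell types' markers moved with the groups. The sum of 8 monocyte markers was 1903 to 2390 CPM in allogeneic, 646.3 to 752.2 CPM in syngeneic and 207.1 to 250.6 CPM in control libraries, nearly all of it from the lysozyme gene Lyz2, which microglia can also express. The 3 groups did not overlap in this sum, and allogeneic libraries were highest. The defining marker Ly6c2 had 225 counts over the 4 allogeneic libraries, 18 over the syngeneic and 6 over the control libraries, and Chil3 was at 0 in syngeneic libraries. Ccr2, the receptor that monocytes use to leave the marrow, went the other way, with 3.997 CPM in allogeneic, 8.01 CPM in syngeneic and 9.49 CPM in control libraries on average. Its fall in allogeneic mice was called against control (adjusted p = 0.0112) but not against syngeneic mice (adjusted p = 0.0911). Plac8 averaged 77.9 CPM in allogeneic, 11.9 CPM in syngeneic and 1.39 CPM in control libraries. Ms4a7, also a border macrophage marker, averaged 23.0, 4.23 and 0.470 CPM in that order. Of the 7 tested monocyte markers, 4 were called higher and 0 lower in allogeneic against syngeneic mice (57.1%, against 16.5% of all genes). The sum of 8 markers of border macrophages was 106 to 147 CPM in allogeneic, 29.5 to 48.7 CPM in syngeneic and 2.35 to 8.40 CPM in control libraries, with Lyve1 at 0 in allogeneic and control libraries. The sum of 8 choroid plexus markers, led by the transthyretin gene Ttr, was 415 to 785 CPM in allogeneic, 1417 to 2462 CPM in syngeneic and 21.2 to 143 CPM in control libraries. Most of the border macrophage sum in allogeneic libraries was Siglec1, at 82.5 CPM against 6.37 CPM in syngeneic libraries, while Mrc1 averaged 17.8 CPM in allogeneic and 19.2 CPM in syngeneic libraries, and the median log2 fold change of the 7 tested markers was -0.11. The choroid plexus sum was highest in syngeneic libraries, with no overlap between groups. The sum of 6 astrocyte markers was 25.5 to 41.2 CPM in allogeneic, 24.8 to 41.1 CPM in syngeneic and 1.47 to 7.91 CPM in control libraries. The sum of 7 platelet markers, nearly all from Gp9, was 11.9 to 20.6 CPM in allogeneic, 39.1 to 54.8 CPM in syngeneic and 58.1 to 61.4 CPM in control libraries, with Ppbp and Gp6 at 0 in all. The sum of 7 T cell markers was at most 3.18 CPM in allogeneic, 4.24 CPM in syngeneic and 2.53 CPM in control libraries, and Cd3e had 12 counts over the allogeneic libraries and was at 0 in the others. T cell markers were thus low in all groups. The 6 neuronal markers summed to 4.66 to 9.88, 6.04 to 13.7 and 1.57 to 2.08 CPM in allogeneic, syngeneic and control libraries, in that order. In the same order, 6 endothelial markers summed to 12.3 to 17.2, 11.9 to 16.8 and 13.7 to 25.3 CPM, and 6 oligodendrocyte markers to 55.2 to 62.3, 44.6 to 77.2 and 52.0 to 65.8 CPM. These sums hide opposite changes in syngeneic against control mice, where 52.1% of all genes were called. Of 3 tested endothelial markers 1 was called higher and 2 lower, and of 3 tested oligodendrocyte markers 2 higher and 1 lower. Mbp had 6974 counts over the syngeneic and 4436 over the control libraries, and Mag 2110 and 4707. The part of these other cell types in the values of the TGF-beta genes was not tested.

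Other genes of the pathway were counted in lists. Of 17 other ligands, latency proteins and activators, 10 were tested. In allogeneic against syngeneic mice 2 rose and 1 fell (median log2 fold change 0.02), in syngeneic against control mice 2 rose and 1 fell (0.01), and in allogeneic against control mice 4 rose and 3 fell (0.43). The shares called were 30%, 30% and 70% in that order of comparisons, against 16.5%, 52.1% and 57.3% of all genes. Mmp14, a membrane protease that can release latent TGF-beta, had 37.3 ± 3.44 CPM in allogeneic and 9.13 ± 1.29 CPM in syngeneic libraries (SD, n = 4 each), a rise of 2.03 ± 0.21 (adjusted p = 9.87e-07). Against the control mean of 8.06 ± 2.43 CPM the rise was 2.21 ± 0.21 (adjusted p = 6.25e-08), and 2.80 with the GC content and length offset. Itgb3, the integrin beta 3 subunit that pairs with alpha-V, had 16.7 ± 5.48 CPM in allogeneic, 35.9 ± 6.0 CPM in syngeneic and 47.0 ± 5.06 CPM in control libraries. It fell in allogeneic against syngeneic mice by 1.11 ± 0.21 (adjusted p = 0.000904) and in allogeneic against control mice by 1.495 ± 0.213 (adjusted p = 8.26e-06). Itgb1, the beta 1 subunit, another partner of alpha-V, had 228.5 ± 9.40 CPM in allogeneic, 240 ± 16.8 CPM in syngeneic and 128 ± 12 CPM in control libraries. It rose against control by 0.84 ± 0.081 in allogeneic (adjusted p = 5.84e-08) and by 0.91 ± 0.081 in syngeneic mice (adjusted p = 3.14e-08).

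Thbs1, which encodes the activator thrombospondin 1, had 20.1 ± 10.1 CPM in allogeneic and 10.2 ± 1.60 CPM in syngeneic libraries, a rise of 0.98 ± 0.30 (adjusted p = 0.0322). That call was lost in 8 of 22 alternatives. Without allogeneic replicate 3 the value was 0.59 (adjusted p = 0.187), and without any 1 of the syngeneic replicates the adjusted p was 0.0518 to 0.091. Furin, the protease that cuts the TGF-beta precursor, had 57.5 ± 6.64 CPM in syngeneic and 85.9 ± 13.6 CPM in control libraries and fell by 0.58 ± 0.13 (adjusted p = 0.00109). With the GC content and length offset that value was 0.062 (adjusted p = 0.718). Furin also fell in allogeneic against control mice, by 0.72 ± 0.13 without the offset (adjusted p = 0.000124). Mmp2, another protease, rose in syngeneic against control mice by 0.41 ± 0.13 (adjusted p = 0.011), and the call was lost without syngeneic replicate 4 (adjusted p = 0.0557) and with library totals alone (adjusted p = 0.157). With the offset the rise was 0.996 (adjusted p = 3.59e-06). Mmp2 also rose in allogeneic against control mice, by 0.76 ± 0.13 without the offset (adjusted p = 5.09e-05).

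Of 12 other receptors and co-receptors, 10 were tested, and none was called in allogeneic against syngeneic mice by edgeR, DESeq2 or limma-voom (median -0.03, 2 lower at an unadjusted p under 0.05). In syngeneic against control mice 3 rose and 2 fell (median -0.31), and in allogeneic against control mice 3 rose and 3 fell (median -0.35). These were 50% called in syngeneic and 60% in allogeneic against control mice, close to the 52.1% and 57.3% of all genes. Bmpr2, the type II receptor for bone morphogenetic proteins, had 235 ± 24.4 CPM in allogeneic, 258 ± 15.3 CPM in syngeneic and 79.9 ± 13.6 CPM in control libraries. It rose against control by 1.56 ± 0.11 in allogeneic (adjusted p = 8.31e-10) and by 1.69 ± 0.11 in syngeneic mice (adjusted p = 5.68e-10). The co-receptor gene Eng had 56.9 ± 10.8 CPM in allogeneic, 64.0 ± 1.77 CPM in syngeneic and 176 ± 17.0 CPM in control libraries. Eng fell against control by 1.63 ± 0.12 in allogeneic (adjusted p = 2.19e-09) and by 1.46 ± 0.12 in syngeneic mice (adjusted p = 1.51e-08), and with the offset by 0.81 in allogeneic and 0.73 in syngeneic mice, both called. Acvrl1, a type I receptor that works with endoglin in vessels, fell against control by 1.02 ± 0.19 in allogeneic (adjusted p = 0.000189) and by 1.34 ± 0.20 in syngeneic mice (adjusted p = 1.42e-05). With the offset the value was -0.27 in allogeneic (adjusted p = 0.245) and -0.64 in syngeneic mice (adjusted p = 0.0102). None of the 6 tested genes in a list of 7 other SMADs and SMAD anchors was called in any comparison by edgeR, DESeq2 or limma-voom, and 0 had an unadjusted p under 0.05. Their median was 0.01 for allogeneic against syngeneic mice, -0.14 for syngeneic and -0.13 for allogeneic against control mice.

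All 19 other regulators of the pathway were tested. In allogeneic against syngeneic mice 5 fell (median -0.18) and 0 rose by edgeR or limma-voom, against 1 by DESeq2 and 1 at an unadjusted p under 0.05, while 4 rose and 3 fell in syngeneic against control mice (0.06) and 2 rose and 6 fell in allogeneic against control mice (-0.19). The shares called were 26.3%, 36.8% and 42.1% in that order of comparisons, above the 16.5% of all genes in the first and below 52.1% and 57.3% in the others. Pmepa1, a feedback inhibitor that holds back receptor-activated SMADs, had 354 ± 19.1 CPM in allogeneic, 525 ± 52.8 CPM in syngeneic and 505 ± 38.4 CPM in control libraries. It fell in allogeneic mice by 0.57 ± 0.078 against syngeneic (adjusted p = 2.83e-05) and by 0.51 ± 0.078 against control mice (adjusted p = 1.75e-05). With the offset the second value was 0.18 (adjusted p = 0.0607). Fkbp1a, which encodes the protein FKBP12 that binds type I receptors, had 54.1 ± 4.43 CPM in allogeneic, 79.5 ± 5.93 CPM in syngeneic and 27.0 ± 2.73 CPM in control libraries. It fell in allogeneic against syngeneic mice by 0.56 ± 0.11 (adjusted p = 0.00149), and rose against control by 1.001 ± 0.113 in allogeneic (adjusted p = 4.9e-07) and by 1.56 ± 0.11 in syngeneic mice (adjusted p = 2.61e-09). Usp11, a deubiquitinase, had 8.22 ± 0.791 CPM in allogeneic, 14.1 ± 3.16 CPM in syngeneic and 33.5 ± 5.22 CPM in control libraries and fell in all 3 comparisons (adjusted p = 0.00776 for allogeneic against syngeneic, 0.0514 there by limma-voom). Tgif1, a co-repressor of SMADs, fell in syngeneic against control mice by 0.83 ± 0.12 (adjusted p = 1.69e-05). It also fell in allogeneic against control mice, by 0.47 ± 0.12 (adjusted p = 0.00299).

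Of 21 known target genes, 16 were tested. In allogeneic against syngeneic mice 3 rose (median 0.45) and 0 fell by edgeR, DESeq2 or limma-voom, with 1 lower at an unadjusted p under 0.05, in syngeneic against control mice 5 rose and 2 fell (0.15), and in allogeneic against control mice 7 rose and 1 fell (0.72). The shares called were 18.8%, 43.8% and 50% in that order of comparisons, near the 16.5% of all genes in the first and below 52.1% and 57.3% in the others. Cdkn1a, the cell cycle inhibitor p21, which is also a target of p53, had 297 ± 5.29 CPM in allogeneic, 287 ± 17.5 CPM in syngeneic and 33.3 ± 4.42 CPM in control libraries. It rose against control by 3.16 ± 0.095 in allogeneic (adjusted p = 1.34e-14) and by 3.11 ± 0.095 in syngeneic mice (adjusted p = 1.35e-13). Fn1, fibronectin, had 26.2 ± 4.56 CPM in allogeneic, 1.42 ± 0.60 CPM in syngeneic and 0.188 ± 0.198 CPM in control libraries. It rose in allogeneic against syngeneic mice by 4.20 ± 0.50 (adjusted p = 5.94e-06), and it is also 1 of the monocyte markers. Against controls, of which at least 1 library had 0 counts, Fn1 rose by 7.16 ± 0.61 in allogeneic (adjusted p = 1.05e-08) and by 2.97 ± 0.56 in syngeneic mice (adjusted p = 0.000231). Without control replicate 2 the rise was 8.06 in allogeneic and 3.87 in syngeneic mice, and by limma-voom 8.17 in allogeneic and 3.92 in syngeneic mice. Id2, an inhibitor of DNA-binding proteins that TGF-beta represses in epithelial cells, rose in allogeneic mice by 0.74 ± 0.11 against syngeneic (adjusted p = 4.65e-05) and by 0.84 ± 0.11 against control mice (adjusted p = 1.92e-06). Bhlhe40, a transcriptional repressor, rose in allogeneic against syngeneic mice by 3.74 ± 0.73 (adjusted p = 0.00118). It was low in the reference, at 10.1 ± 2.58 CPM in allogeneic, 0.748 ± 0.589 CPM in syngeneic and 1.41 ± 0.871 CPM in control libraries. Klf10, an early TGF-beta response gene, rose in syngeneic against control mice by 1.14 ± 0.21 (adjusted p = 0.000138). It also rose in allogeneic against control mice, by 1.65 ± 0.21 (adjusted p = 1.97e-06).

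All 14 genes of a list of homeostatic microglia genes tied to TGF-beta in the mouse were tested, which also holds genes of macrophages in general such as Csf1r and C1qa, and 5 of them are also among the microglia markers. In allogeneic against syngeneic mice 2 rose and 8 fell (median -0.26), in syngeneic against control mice 8 rose and 6 fell (0.28), and in allogeneic against control mice 5 rose and 9 fell (-0.72). The shares called were 71.4%, 100% and 100% in that order of comparisons, against 16.5%, 52.1% and 57.3% of all genes. The shares of all genes were not matched for level, and most genes of this list were highly expressed. A log2 fold change as small as 0.25 was called in C1qa, in syngeneic against control mice. Fcrls, an Fc receptor-like gene, had 236 ± 42.2 CPM in allogeneic and 1179 ± 53.4 CPM in syngeneic libraries, and fell by 2.32 ± 0.12 (adjusted p = 1.37e-10). Gpr34, a receptor for lysophospholipids, had 1866 ± 102 CPM in allogeneic and 3583 ± 251 CPM in syngeneic libraries and fell by 0.94 ± 0.064 (adjusted p = 3.41e-09). P2ry12, the purine receptor by which microglia sense ATP and ADP, had 9081 ± 393 CPM in allogeneic and 17290 ± 868 CPM in syngeneic libraries and fell by 0.93 ± 0.065 (adjusted p = 4.64e-09). In control libraries Fcrls averaged 893 CPM, Gpr34 2597 CPM and P2ry12 12080 CPM. Each was called higher in syngeneic than in control mice, at log2 fold changes of 0.40, 0.46 and 0.52 in that order. Each was called lower in allogeneic than in control mice, at -1.92, -0.48 and -0.41. Against controls, Csf1r and Tmem119 fell in both transplanted groups and Pros1 rose. Csf1r, the receptor for the growth factors that keep microglia alive, had 2879 ± 170 CPM in allogeneic, 3525 ± 337 CPM in syngeneic and 11490 ± 1080 CPM in control libraries. Tmem119, a surface protein used to mark microglia, had 1139 ± 48.1 CPM in allogeneic, 1342 ± 75.9 CPM in syngeneic and 3971 ± 491 CPM in control libraries. Pros1, a bridging molecule in the uptake of dying cells, had 1043 ± 41.8 CPM in allogeneic, 790.9 ± 36.7 CPM in syngeneic and 409.5 ± 27.3 CPM in control libraries. The highest adjusted p of these 6 tests was 6.57e-10. With the offset the fall of Csf1r against control was smaller, with a log2 fold change of -1.299 in allogeneic mice, against -1.997 without it, and of -1.12 in syngeneic mice, against -1.705 without it.

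For the 3 members with the widest range of group means, the genes with the most similar profile were sought among 9215 tested genes, by the root mean square difference of log2 CPM over the 12 libraries, each centred on its control mean. Nrros was closest to Myo1f (0.131), an unconventional myosin, and Tmem229b (0.161). Myo1f averaged 183 CPM in allogeneic, 158 CPM in syngeneic and 344 CPM in control libraries. Itgav was closest to Hnrnpd (0.092), an RNA-binding protein, and Rac1 (0.094), a small GTPase, and Rac1 averaged 282 CPM in allogeneic, 304 CPM in syngeneic and 161 CPM in control libraries. Skil was closest to Hnrnpu (0.076), another RNA-binding protein, and Ppp6r1 (0.078), a phosphatase subunit, and Hnrnpu averaged 256 CPM in allogeneic, 264 CPM in syngeneic and 152 CPM in control libraries.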

How the data were processed

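The table deposited by the authors holds raw counts of 24328 gene symbols in 12 libraries of sorted microglia, from 4 mice per group per the labels' protocols. The submitters' processing notes name Trimmomatic 0.36, STAR 2.5.2b and the build mm9. Counting tool, annotation and strand setting: not given in the sources used here. TMM factors, CPM and fold changes were derived from the deposited counts by edgeR 4.0.16 under R 4.3.3 (filterByExpr with a minimum count of 10, glmQLFit with robust estimation, glmQLFTest), in 1 fit of 3 group means. P-values were adjusted by Benjamini-Hochberg over 12695 genes. The code was tested on simulated data. Alternatives were RLE factors, library totals, other filters (none, or at least 1 CPM in 4 libraries), DESeq2 1.42.0, limma-voom 3.58.1, 2-group fits, a replicate block, an offset for GC content and length (loess span 0.3, 12615 genes with values) and leaving out each library, 22 in all. Lengths and GC content came from the longest annotated transcript of a later build than mm9. Of the symbols, 23298 matched its annotation directly and 669 through a synonym. Promoter windows from RefSeq were used for 7 of the 10 members, and member windows on 1 chromosome were left out. The members and lists were chosen with earlier results of these data known. In the microglial lists, 1 gene was left out and is not reported here, for a reason unrelated to its values. Besides the members, up to 3 called genes with the smallest p per list and comparison are named, and the 2 nearest profiles of 3 members. Ranges and SD bars cover the spread between the mice of a group. Standard errors were derived from the log2 fold change and its F statistic. That fit estimates the spread from all 12 libraries together and borrows across genes, so its standard errors are not the spread within the groups compared. Counts of 3 in a group correspond to 0.019 CPM in allogeneic, 0.0181 CPM in syngeneic and 0.0202 CPM in control libraries.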

Additional observations from a re-analysis of the deposited data

Results flagged for a closer look

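In 4 of the 30 gene and group sets of 4 mice, 1 library stood apart from the other 3 by Dixon's test. Chance marks about 1 in 20 such sets. Itgav had 135.8 CPM in allogeneic replicate 1, against 151.06 to 152.73 CPM in the other allogeneic libraries. Tgfbr1 had 1503.8 CPM in syngeneic replicate 4, against 1394.4 to 1404.7 CPM in the other syngeneic libraries. Smad7 had 36.235 CPM in syngeneic replicate 2, against 32.282 to 32.722 CPM in the others. Skil had 742.25 CPM in allogeneic replicate 3, against 693.47 to 699.2 CPM in the others. The 4 values came from 4 different libraries.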

How the results depend on the processing

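Over the 10 genes, 3 comparisons and 22 alternatives, 603 of 660 values kept their direction and their side of the threshold, 17 lost a call, 25 gained one and 15 changed sign. For allogeneic against syngeneic mice, library totals alone gave 0 members called higher and 5 lower, and 844 genes higher and 2108 lower. For syngeneic against control mice, members called higher were 2 with library totals. Members called lower there were 3 with library totals and in the 2-group fit, and 2 with the stricter filter, limma-voom, the GC content and length offset and the block with offset. For allogeneic against control mice, members called higher were 5 with the offset and with block and offset, and members called lower were 3 with these and in the 2-group fit. Leaving out 1 library gave 1 member higher and 3 lower in allogeneic against syngeneic mice (all genes 1086 to 1314 and 675 to 844). It gave 5 to 6 and 1 to 2 in syngeneic against control mice (3162 to 3390 and 3006 to 3371), and 3 and 3 to 5 in allogeneic against control mice (3392 to 3602 and 3468 to 3785).

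Signs changed for allogeneic against syngeneic mice in Tgfb1 (library totals -0.112, -0.012 without syngeneic replicate 1, -0.017 without allogeneic replicate 4, and -0.017 to 0.254 over all left-out libraries), Smad2 (offset 0.015, 0.012 without allogeneic replicate 3, and -0.272 to 0.012 over all) and Skil (0.071 with the offset, with and without block). With the offset, and with block and offset, Smad7 was 0.416 and 0.423 in syngeneic against control mice. In allogeneic against control mice the same pair was 0.136 and 0.132 for Smad3, 0.382 and 0.377 for Smad7, and 0.577 and 0.575 for Ski. Among other named genes, Furin was 0.062 and 0.074 in syngeneic and Pmepa1 0.181 and 0.181 in allogeneic against control mice. The cause was not tested.

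Same-numbered libraries did not deviate together (correlations of -0.015 to 0.032), and the labels give no pairing. Such correlations cannot exclude that same-numbered mice shared a batch. The replicate block alone left 1 member higher and 3 lower, 5 and 1, and 3 and 5 in the 3 comparisons, and gave 1215 and 787, 3296 and 3211, and 3512 and 3688 genes. With 4 mice per group, differences of the size of the standard errors given could not be resolved, and the standard errors of Tgfb1 were the widest of the 10 genes.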
